A study of Rattus norvegicus with 9 samples.

Results

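The transcripts described here encode the cellular oxygen sensor: the 3 regulated subunits of hypoxia-inducible factor (*Hif1a*, *Epas1* and *Hif3a*), the enzymes that hydroxylate them (*Egln1*, *Egln2*, *Egln3* and *Hif1an*), the protein that marks the hydroxylated subunits for destruction (*Vhl*), and *Bnip3*, a mitochondrial protein whose gene is a known target of the factor. They are 9 of the 14324 genes measured by a probe set that carries 1 gene symbol, chosen by name, each read from its probe set with the highest mean. RNA came from primary rat aortic smooth muscle cells (RASMC) of a commercial source, held quiescent for 24 hr at 0.2% serum, washed in K+-free medium and then kept for 6 hr in air with CO2. The 3 groups of 3 Affymetrix Rat Gene 1.0 ST arrays were control DMEM, DMEM with 3 mM ouabain (Ouabain) and K+-free DMEM (K_Free). All groups share the serum reduction, the wash and normal oxygen, so no group was hypoxic. The methods state 3 independent experiments, each with controls and treatments in parallel.

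HIF is a pair of proteins, a regulated alpha subunit and the constant partner ARNT. In the presence of oxygen, the EGLN prolyl hydroxylases use oxygen, iron and 2-oxoglutarate to hydroxylate prolines of the alpha subunit, which VHL and its ubiquitin ligase then recognise and send to the proteasome. HIF1AN, an asparaginyl hydroxylase, blocks the contact of the alpha subunit with the coactivators p300 and CBP, so that the sensor acts on protein, while the arrays measured RNA. Ouabain binds the Na+,K+-ATPase of the cell membrane and blocks it, and removal of external K+ deprives the same pump of an ion it needs to turn over.

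The identity of the cells was checked with marker genes. Of 9 measured smooth muscle markers, 8 lay above the median of their array in every group, *Des* being the exception, and *Tagln* ranked at percentile 99.5 of all probe sets. Of 7 endothelial markers, 1 lay above it, and of 10 fibroblast markers 6 did in control, 5 in Ouabain and 6 in K_Free, with *Lum* at percentile 98.7 and *Thy1* at 93.7. Summed linear signals of the smooth muscle list were 28550 to 29320 in control arrays, 22250 to 24860 in Ouabain and 25060 to 25500 in K_Free. By the test and limit given below, 7 and 4 of its 9 genes were called lower in the respective treatments and none higher. Of all probe sets, 15.8% were called higher and 16.8% lower in Ouabain, and 16.1% and 17.9% in K_Free. The list of 10 macrophage markers summed to 743.8 to 795.7 in control, 1326 to 1359 in Ouabain and 954.9 to 1058 in K_Free, with 5 and 4 members higher, *Cd14* and *Cd68* among them, and the defining *Ptprc* (percentile 19.1) and *Adgre1* (percentile 20.5) low. The 10 fibroblast markers summed to 11030 to 11300, 12350 to 12690 and 13750 to 14370, with 1 higher and 1 lower in Ouabain and 4 higher in K_Free. The 7 endothelial markers summed to 522.4 to 528.9 in control, 532.8 to 549.5 in Ouabain and 539.4 to 559.5 in K_Free. The part of these shifts in the results below was not tested. In bulk RNA, fewer cells of a type and less RNA per cell cannot be told apart.

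HIF binds DNA at a short core, ACGTG or GCGTG, and several genes of its own sensor carry this core near their start. It was sought on both strands of RefSeq promoter windows of 300 bases (250 before to 50 after the start, rat build GRCr8). All 9 genes had a window there, 10 windows in all because *Hif3a* has 2 starts, and 4 of these 10 windows (40.0%) held a match, compared with 41.6% of 33469 windows of all genes. The windows of *Bnip3* (4 matches), *Hif1a* (3), *Egln1* (2) and 1 of the *Hif3a* windows (2) held it. Those of *Egln2*, *Egln3*, *Hif1an*, *Vhl* and *Epas1* did not, which says only that these letters are not in these windows. The following stretches of 25 bases are shown because they come from the 3 genes with a match whose signal lay above the array median, so that each can be read beside its array values. Capitals mark the core or its reverse complement with 10 bases on each side, each read along the strand of its gene.
Bnip3, chr1:203155046-203155070, minus strand, 98 bases before the start: cacgcgccgcACGTGccacacgcgc
Bnip3, chr1:203155038-203155062, minus strand, 90 bases before the start: gcacgtgccaCACGCgccccttgtt
Hif1a, chr6:98359660-98359684, plus strand, 228 bases before the start: acagacgagcACGTGagctgggcag
Hif1a, chr6:98359724-98359748, plus strand, 164 bases before the start: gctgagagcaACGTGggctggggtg
Egln1, chr19:69804723-69804747, minus strand, 56 bases before the start: ccggcccgccGCGTGcgcgcggccc
Egln1, chr19:69804665-69804689, minus strand, 2 bases after the start: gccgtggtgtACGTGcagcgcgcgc
The first lines of *Bnip3* and of *Hif1a* hold CACGTG, which reads as a core on both strands and counts as 2 matches. As the values below show, the 3 genes went different ways: *Bnip3* fell in both treatments, *Hif1a* rose in Ouabain, and *Egln1* passed the test against control in neither.

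Levels are given as log2 signals, in which 1 unit is a doubling, and a change is a difference between group means on that scale. A change was called at a Benjamini-Hochberg adjusted p under 0.05 in limma and a fold above 1.2, and "rose" and "fell" refer to called changes. In Ouabain 5 of the 9 genes were called against control (55.6%), 4 higher and 1 lower. Of all 27342 probe sets 32.5% were called, 15.8% higher and 16.8% lower. In K_Free 6 were called (66.7%), 4 higher and 2 lower, beside 33.9% of all probe sets, 16.1% higher and 17.9% lower. *Egln3*, *Hif1an*, *Vhl* and *Bnip3* were called in both, *Hif1a* passed in Ouabain, *Epas1* and *Egln2* passed in K_Free, and *Egln1* and *Hif3a* passed in neither. The median change of the 9 genes was 0.21 in Ouabain and 0.26 in K_Free, beside 0.07 and 0.06 over all probe sets. The arrays of treatment and control did not overlap for 8 genes in Ouabain, where 54.2% of all probe sets were apart, and for 7 in K_Free, where 57.1% were. Both comparisons use the same 3 control arrays.

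**Figure D1:**
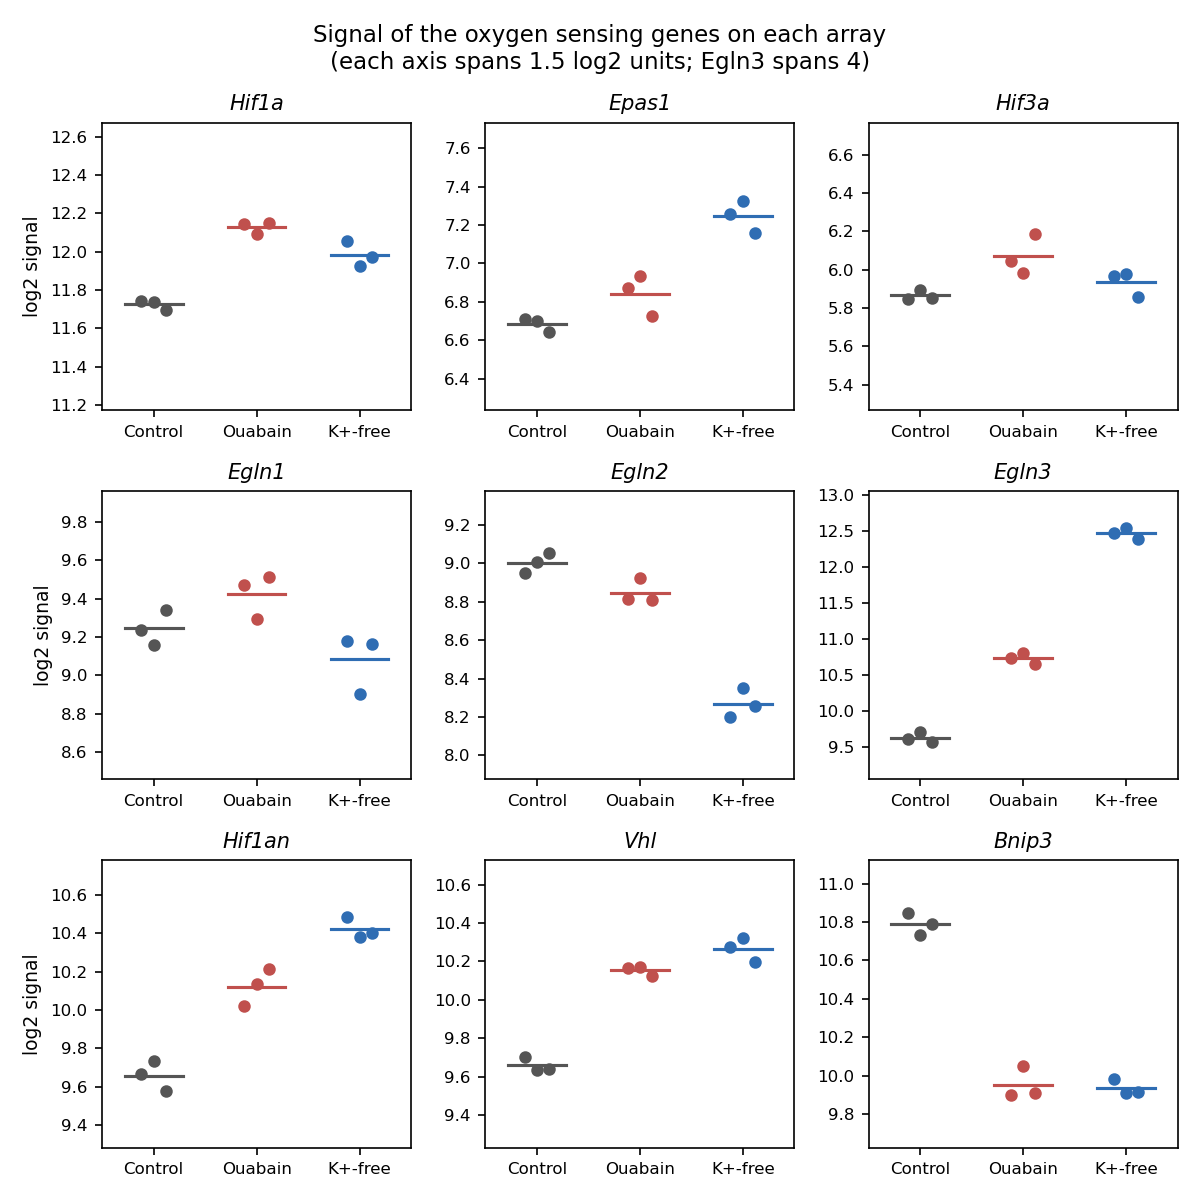
Log2 signal (vertical axes) of the 9 oxygen sensing genes on each of the 9 arrays, with 3 points for Control, 3 for Ouabain and 3 for K+-free medium and a line at each group mean. The K+-free points of *Egln3* (12.40 to 12.54) lie far above its control points (9.57 to 9.71), and both treated groups of *Bnip3* lie below its controls.

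*Egln3*, the prolyl hydroxylase whose own transcript is a well known HIF target, changed most of the 9. Its signal was 9.61, 9.71 and 9.57 on the control arrays, 10.74, 10.81 and 10.65 in Ouabain and 12.48, 12.54 and 12.40 in K_Free. The 3 groups were fully apart, with little spread within each. The rise was 1.10 in Ouabain (95% interval 0.96 to 1.24, adjusted p = 1.15e-07), or 2.15-fold, and 2.84 in K_Free (2.70 to 2.98, adjusted p = 1.67e-10), or 7.18-fold. Of the 14324 genes, 195 rose further than *Egln3* in Ouabain and 27 in K_Free. The change in K_Free exceeded that in Ouabain by 1.74 (1.60 to 1.88, adjusted p = 1.84e-08), a 3.34-fold difference between the treatments.

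*Egln2*, which encodes a mainly nuclear prolyl hydroxylase, went the other way. Its arrays read 8.95, 9.01 and 9.05 in control, 8.81, 8.92 and 8.81 in Ouabain and 8.20, 8.35 and 8.26 in K_Free. The K_Free arrays lay below all others, while the Ouabain arrays lay just under the controls. It fell by 0.74 in K_Free (interval -0.87 to -0.60, adjusted p = 1.38e-06), to 60.1% of control, and the difference in Ouabain was -0.16 (-0.29 to -0.03, adjusted p = 0.0526). The difference between the treatments was itself called, at -0.58 (adjusted p = 4.19e-05).

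*Egln1* encodes the prolyl hydroxylase that sets HIF-1 alpha levels in most cells at normal oxygen. Its signal was 9.24, 9.16 and 9.34 in control, 9.47, 9.29 and 9.51 in Ouabain and 9.18, 8.90 and 9.16 in K_Free, so that both treated groups overlapped the controls. Neither change passed the test, at 0.18 in Ouabain (-0.02 to 0.37, adjusted p = 0.122) and -0.16 in K_Free (-0.36 to 0.03, adjusted p = 0.155). The treatments differed from each other by -0.34 (-0.54 to -0.15, adjusted p = 0.016), a call lost without Ouabain replicate 1 (-0.32, adjusted p = 0.0619), Ouabain replicate 3 (-0.30, adjusted p = 0.0624) or K_Free replicate 2 (-0.25, adjusted p = 0.0512). On all arrays it was also lost in an ordinary analysis of variance (adjusted p = 0.0695) and in the methods' t-test after Benjamini-Hochberg adjustment (adjusted p = 0.16). A second probe set of *Egln1* gave changes of -0.02 and -0.23 and a difference between treatments of -0.22 (adjusted p = 0.247), none of them called. The annotation gives both probe sets the same accession, and where each lies in the gene was not determined.

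*Hif1an*, the asparaginyl hydroxylase, rose in both treatments. Control arrays read 9.67, 9.73 and 9.58, Ouabain arrays 10.02, 10.13 and 10.21, and K_Free arrays 10.49, 10.38 and 10.40. The groups did not overlap and their order was control, Ouabain, K_Free. The rise was 0.46 in Ouabain (0.32 to 0.61, adjusted p = 0.000137) and 0.76 in K_Free (0.62 to 0.91, adjusted p = 2.16e-06), 1.38-fold and 1.70-fold. The treatments differed by 0.30 (adjusted p = 0.00631), and without Ouabain replicate 1 by 0.25, which is under the fold limit.

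Since the hydroxylases moved by different amounts, their balance within an array shifted. Relative to the control mean, the ratio of *Egln3* to *Egln2* signal rose to 2.40-fold in Ouabain and to 11.9-fold in K_Free, and the ratio of *Egln3* to *Egln1* to 1.90-fold and 8.04-fold. All treated arrays lay above all control arrays in both ratios. The ratio of *Egln1* to *Egln2* changed by 0.34 ± 0.18 (SD, n = 3) in Ouabain and by 0.57 ± 0.23 (SD, n = 3) in K_Free on the log2 scale, with overlap between the treatments. These ratios show unequal change of the transcripts and carry no test.

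**Figure D2:**
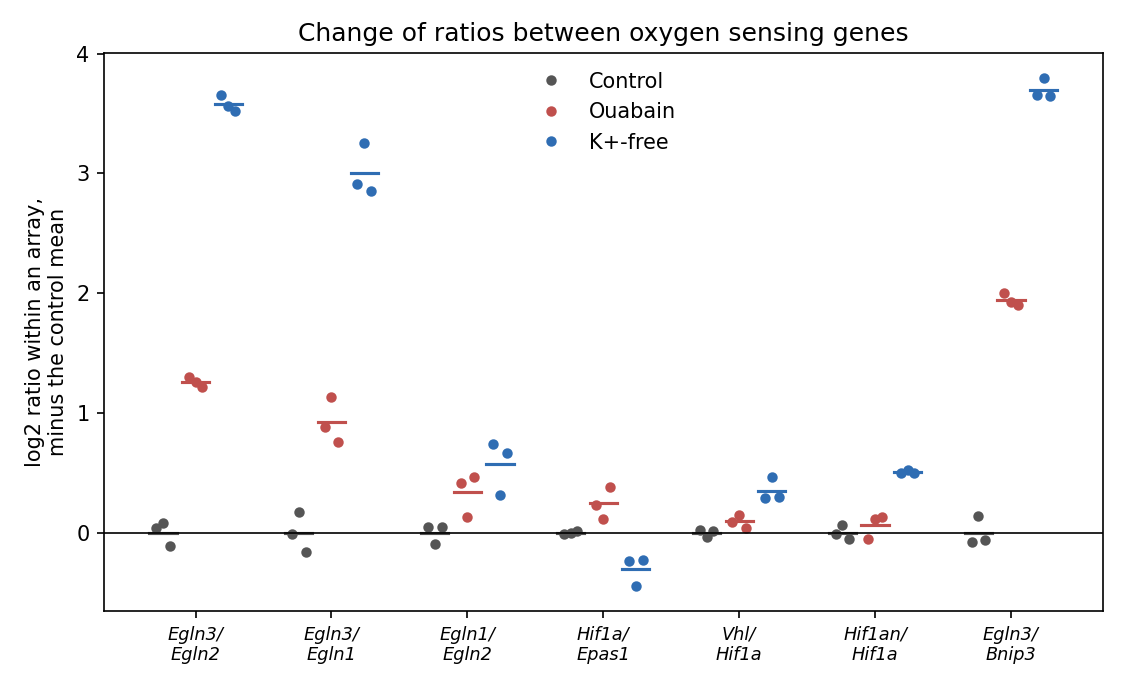
Log2 ratio of the signals of 2 genes within an array, minus the mean of the control arrays (vertical axis), for 7 pairs of oxygen sensing genes, each point an array and each line a group mean. *Egln3* over *Egln2* stands at 1.26 for Ouabain and at 3.58 for K+-free medium, while *Hif1a* over *Epas1* is positive in Ouabain and negative in K+-free medium.

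*Hif1a* encodes the alpha subunit of HIF-1 and ranked at percentile 96.0 of all probe sets. It read 11.74, 11.74 and 11.70 in control, 12.14, 12.09 and 12.15 in Ouabain and 12.06, 11.93 and 11.97 in K_Free. Every treated array exceeded every control array, and the lowest Ouabain array exceeded the highest K_Free array. It rose by 0.40 in Ouabain (0.29 to 0.52, adjusted p = 6.75e-05), 1.32-fold, but with each array centred on the reference gene *B2m* by 0.25, under the fold limit (adjusted p = 0.00178). In K_Free the difference was 0.26 (0.14 to 0.37, adjusted p = 0.00171), which at 1.197-fold missed the fold limit. Leaving out Control replicate 1, Control replicate 2, K_Free replicate 2 or K_Free replicate 3 took it past that limit, with changes up to 0.29, whereas centred on *B2m* it was 0.10 (adjusted p = 0.130). The treatments differed by -0.14 (-0.26 to -0.03, adjusted p = 0.0783), which did not pass.

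*Epas1* encodes HIF-2 alpha, the subunit best known from endothelial cells, and lay in the middle of the range, at percentile 51.9. The control arrays read 6.71, 6.70 and 6.64, those of Ouabain 6.87, 6.93 and 6.73, and those of K_Free 7.26, 7.33 and 7.16. The K_Free arrays lay above all others, and the lowest of the Ouabain arrays lay just above the highest control. It rose by 0.56 in K_Free (0.42 to 0.71, adjusted p = 3.11e-05), 1.48-fold, against a difference of 0.16 in Ouabain (0.01 to 0.31, adjusted p = 0.0747). The treatments differed by 0.40 (0.26 to 0.55, adjusted p = 0.00106). The ratio of *Hif1a* to *Epas1* therefore moved in opposite directions from control, by 0.24 ± 0.13 (SD, n = 3) in Ouabain and by -0.30 ± 0.12 (SD, n = 3) in K_Free, and all 3 arrays of each treatment showed its direction. This ratio carries no test, and *Epas1* in Ouabain and *Hif1a* in K_Free were not called.

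*Hif3a*, whose products include inhibitors of the other subunits, was low: at percentile 31.4 it lay below the array median on all 9 arrays. It read 5.85, 5.90 and 5.85 in control, 6.04, 5.98 and 6.19 in Ouabain and 5.97, 5.98 and 5.86 in K_Free. The Ouabain arrays lay above the controls, and K_Free overlapped them. The differences were 0.21 in Ouabain (0.07 to 0.34, adjusted p = 0.0207, under the fold limit) and 0.07 in K_Free (-0.07 to 0.21, adjusted p = 0.393).

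*Vhl*, the substrate receptor of the ubiquitin ligase, rose in both treatments. It read 9.70, 9.63 and 9.64 in control, 10.17, 10.17 and 10.12 in Ouabain and 10.28, 10.32 and 10.20 in K_Free. The rise was 0.50 (0.38 to 0.61, adjusted p = 1.18e-05) in Ouabain and 0.61 (0.49 to 0.72, adjusted p = 2.0e-06) in K_Free, 1.41-fold and 1.52-fold. The K_Free arrays lay above the Ouabain arrays, but the difference of 0.11 (-0.00 to 0.23, adjusted p = 0.175) did not pass. Relative to *Hif1a*, *Vhl* stood 0.09 ± 0.05 (SD, n = 3) higher than in control in Ouabain and 0.35 ± 0.10 (SD, n = 3) higher in K_Free, and *Hif1an* 0.06 ± 0.10 (SD, n = 3) and 0.51 ± 0.02 (SD, n = 3).

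*Bnip3* encodes a BH3-type protein of the outer mitochondrial membrane that serves as a mitophagy receptor, and is induced by HIF in hypoxia. It read 10.85, 10.73 and 10.79 in control, 9.90, 10.05 and 9.91 in Ouabain and 9.98, 9.91 and 9.91 in K_Free. The treated arrays lay far below every control array, and those of the treatments overlapped each other. The fall was -0.84 in Ouabain (-0.97 to -0.71, adjusted p = 4.88e-07) and -0.85 in K_Free (-0.98 to -0.72, adjusted p = 3.64e-07), to 55.9% and 55.3% of control. The treatments differed by -0.02 (-0.14 to 0.11, adjusted p = 0.920). A second probe set of the gene fell by 0.72 and fell by 0.73. *Egln3* and *Bnip3*, both known targets of HIF, thus parted, their ratio reaching 3.84-fold of control in Ouabain and 13.0-fold in K_Free.

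**Figure D3:**
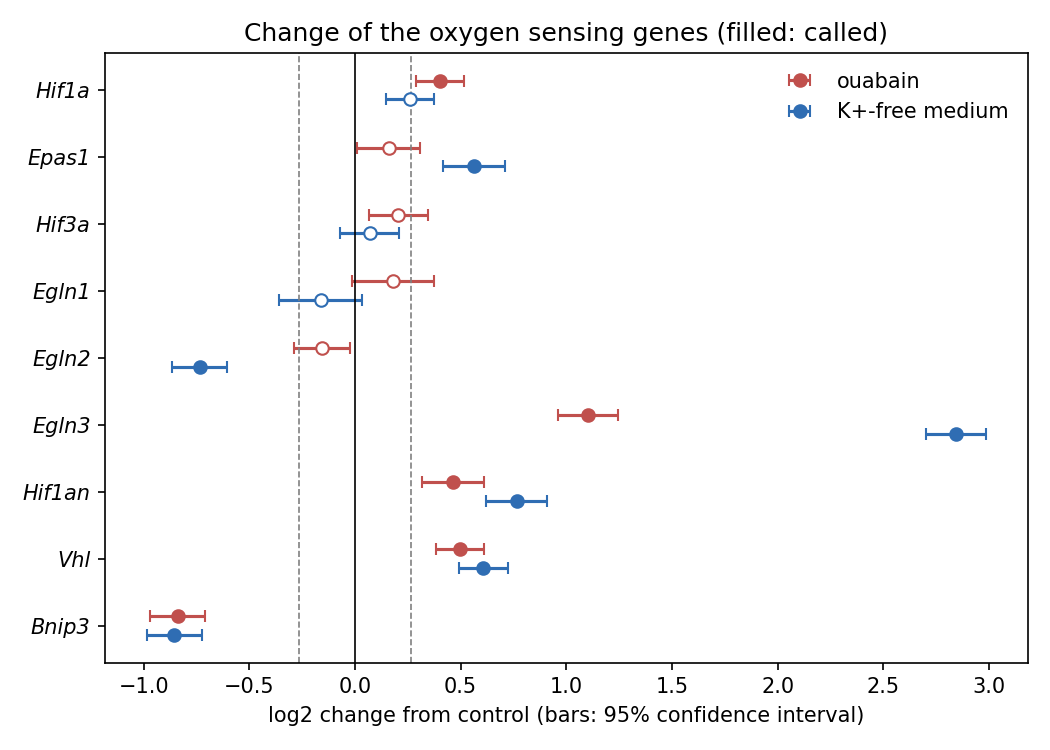
Change from control on the log2 scale (horizontal axis) of the 9 genes under each treatment, with 95% confidence intervals from the limma fit and dashed lines at the fold limit of 1.2. Filled points are called changes (5 with ouabain, 6 without K+), among which *Egln3* stands apart at 1.10 and 2.84.

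Between the treatments, 5 of the 9 genes were called (55.6%), 3 higher and 2 lower in K_Free, beside 16.4% of all probe sets, 8.45% higher and 7.97% lower. *Egln3*, *Epas1* and *Hif1an* were higher in K_Free, and *Egln2* and *Egln1* were lower. The arrays of the treatments did not overlap in 8 genes, against 32.4% of all probe sets, *Bnip3* being the one that overlapped. The median difference was -0.02 for the 9 genes and -0.01 over all probe sets. The count was 3 without Ouabain replicate 1, *Egln1* and *Hif1an* being lost. It was 4 in an ordinary analysis of variance, *Egln1* being lost, and 2 with the methods' t-test after Benjamini-Hochberg adjustment.

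The profile over the 9 arrays, centred on each gene's own mean, was compared with that of every other gene by the root mean square difference. Nearest to *Egln3* was *Nfkbia*, at 0.08 on the log2 scale, with changes of 1.09 and 2.77, followed by *Nfkbiz* at 0.10, with 1.07 and 2.64. Only 1 gene lay within 0.1 of *Egln3*, compared with 763 for *Hif1a* and 211 for *Bnip3*. That limit is absolute, and the root mean square spread of these genes about their own means was 1.17, 0.17 and 0.40. The counts therefore depend on the size of the changes and do not rank how rare a profile is. Nearest to *Bnip3* were *Txnrd2* (-0.82 and -0.80) and *Pip5k1c* (-0.84 and -0.89), to *Hif1a* *Cdh5* and *Arih2*, and to *Epas1* *St8sia2* and *Bhlhe40*. *Cdh5*, from the endothelial list, was low, with a mean of 5.83 at percentile 26.7. *Kmt5b* and *Gzf1* came nearest to *Vhl*, *Atad2b* and *Riok3* to *Hif1an*, *Wsb2* and *Tada2b* to *Egln2*, and *Ppm1b* and *Map1lc3b* to *Egln1*. Pearson correlations of these pairs over the 9 arrays were 0.952 to 0.999, on points that share the 3 groups.

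Among the 10 partners and coactivators of HIF, 3 were higher and 2 lower in Ouabain (median change 0.14) and 3 higher and 1 lower in K_Free (median 0.02), counts that became 2 and 2, and 1 and 3, with each array centred on *B2m*. Of all probe sets, 15.8% were higher and 16.8% lower in Ouabain and 16.1% higher and 17.9% lower in K_Free, beside which these and the following list counts are set. The coactivator *Ep300* rose by 0.68 and 0.70 (adjusted p = 1.1e-06 and 7.2e-07) and its relative *Crebbp* by 0.56 and 0.42. *Arnt2*, an alternative partner subunit, fell by 0.56 and fell by 0.67, whereas the common partner *Arnt*, named after its values were seen, rose by 0.31 and 0.35. Centred on *B2m*, *Arnt* in both treatments and *Crebbp* in K_Free lay under the fold limit. No member of this list was called between the treatments.

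Of the 8 genes of the VHL ubiquitin ligase and its cofactors, 1 was higher and 2 were lower in Ouabain (median -0.09) and 1 was higher and 3 were lower in K_Free (median -0.16), while centred on *B2m* none was higher and 2 and 5 were lower. With 3 of 8 called in Ouabain, the list lay near the 32.5% of all probe sets. *Ube2d1*, a ubiquitin-conjugating enzyme, fell by 1.18 and fell by 1.42 (adjusted p = 1.26e-08 and 2.73e-09), and the ring finger subunit *Rbx1* fell by 0.45 and fell by 0.84. *Usp33*, a deubiquitinase that binds VHL, differed by 0.07 in Ouabain (adjusted p = 0.330) and fell by 0.40 in K_Free. The core partners of VHL, named after their values were seen, were not called in either treatment: *Elob* at -0.10 and 0.07, *Eloc* at -0.08 and -0.12, and *Cul2* at -0.09 and 0.15. The transcript of *Vhl* and those of its ligase thus did not move together.

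Among 17 measured of 20 other regulators of HIF protein, 5 rose and 5 fell in each treatment (medians 0.00 and 0.06), and centred on *B2m* 3 were higher in each and 5 and 7 lower. *Bhlhe41*, a clock repressor that binds HIF subunits, rose by 2.64 and 2.89, and the clock gene *Per2* by 2.45 and 2.29. *Wsb1*, which encodes part of a ubiquitin ligase that acts on VHL and is named after its values were seen, rose by 1.02 and 0.99. *Mtor*, the kinase that promotes HIF-1 alpha synthesis, changed by -1.32 in Ouabain and by -0.65 in K_Free, both called, with a difference of 0.67 between treatments (adjusted p = 1.06e-05). Of 21 measured of 30 further oxygen and 2-oxoglutarate dependent enzymes, 8 rose and 4 fell in each treatment (medians 0.10 and 0.10), while centred on *B2m* the counts were 6 higher and 7 lower in Ouabain and 7 higher and 6 lower in K_Free. The histone demethylase *Kdm6b* rose by 1.03 and 1.61 and the collagen prolyl hydroxylase *P4ha2* by 0.57 and 0.98, while the demethylase *Kdm4a* fell by 1.29 and fell by 0.60.

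The known targets of HIF held called genes in both directions. Of 50 measured of 52 target genes, 16 were higher and 10 lower in Ouabain (median 0.11). In K_Free 17 were higher and 12 lower (median 0.13). Over all probe sets 15.8% and 16.8% were higher and lower in Ouabain, 16.1% and 17.9% in K_Free. With each array centred on *B2m* the target counts were 12 higher and 14 lower in Ouabain and 14 higher and 16 lower in K_Free. The same centring turned all probe sets toward falls, with 2166 higher and 6223 lower in Ouabain and 2375 and 7059 in K_Free. The vasodilator peptide gene *Adm* rose by 1.51 and 2.99, the haem oxygenase *Hmox1* by 2.50 and 1.21, and the inducible nitric oxide synthase *Nos2* by 0.33 and 2.42, from means of 6.05 in control and 6.37 in Ouabain that lay below the array medians. *Vegfa*, the endothelial growth factor, rose by 0.35 (adjusted p = 0.000265) and 0.83 (adjusted p = 2.09e-07), and *Edn1*, encoding endothelin, by 0.45 (adjusted p = 1.57e-05) and 1.40 (adjusted p = 2.64e-09). Centring on *B2m* moves every change in Ouabain by -0.15, which puts *Vegfa* and *Nos2* there under the fold limit. All 5 genes differed between the treatments, *Hmox1* being lower in K_Free by 1.29 on the log2 scale and the others higher.

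The targets of sugar metabolism given here, named after their values were seen, included rises, falls and genes not called. Other sugar targets of the list are not named. *Hk2*, the hexokinase, rose by 1.65 and 1.24, and *Pfkfb3*, an activator of glycolysis, by 1.03 and 1.09. *Pfkfb4* fell by 1.51 and fell by 1.32, to means of 6.50 and 6.70 below the array medians, the glycogen synthase *Gys1* fell by 1.52 and fell by 1.28, and *Pdk1*, which restrains pyruvate dehydrogenase, fell by 0.62 and fell by 0.77. The glucose transporter *Slc2a1* (0.02 and -0.02), the lactate dehydrogenase *Ldha* (0.09 and 0.00) and the kinase *Pgk1* (0.22 and 0.14) were not called. The stress gene *Ddit4*, also named after its values were seen, rose 1.43-fold and 2.29-fold. Promoter windows holding the core were 33 of 46 for the targets (71.7%), against 41.6% of all windows, for a list whose genes are known for such elements.

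**Figure D4:**
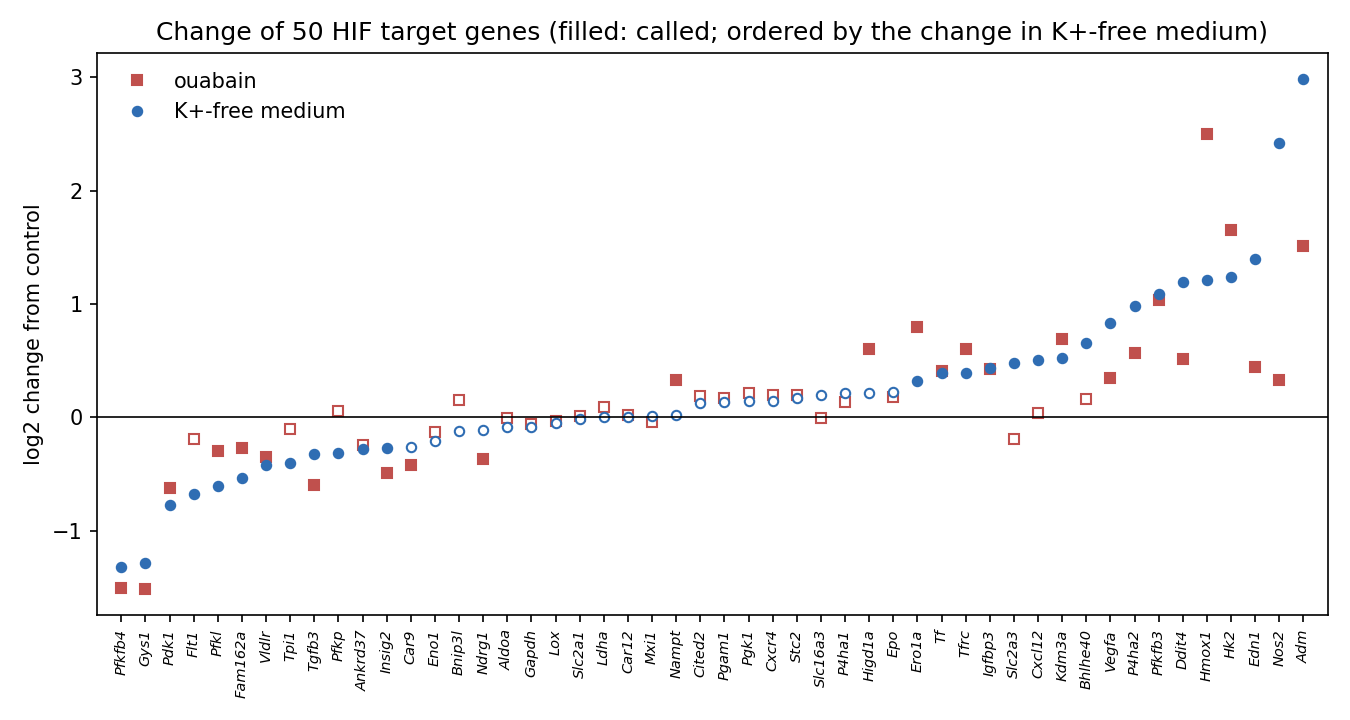
Change from control on the log2 scale (vertical axis) of 50 HIF target genes (horizontal axis), in ouabain (squares) and K+-free medium (circles), ordered by the change in K+-free medium, with filled symbols for called changes. The targets run from *Pfkfb4* (-1.51 and -1.32) to *Adm* (1.51 and 2.99), with called genes on both sides of 0.

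Around *Bnip3*, 16 of 18 listed genes of mitophagy and of BNIP3 binding were measured. Of these, 6 were higher and 3 lower in Ouabain (median 0.19) and 4 higher and 2 lower in K_Free (median 0.05). Centred on *B2m*, which turned all probe sets toward falls, the counts were 3 and 4, and 3 and 5. The antiapoptotic genes *Bcl2* (0.88 and 1.99) and *Bcl2l1* (0.83 and 1.14), whose proteins bind BNIP3, rose in both. The mitophagy receptor *Fundc1* fell by 0.93 and fell by 0.34. *Bnip3l*, the closest relative of *Bnip3* and named after its values were seen, was not called in either treatment, at 0.15 (adjusted p = 0.0961) and -0.12 (adjusted p = 0.191), and *Bnip3* fell in both.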

How the data were processed

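The authors deposited log2 signals of 27342 probe sets on 9 arrays, which the submitters' processing notes tie to RMA and Partek, without versions. The study's methods also name MAS5 and GeneSpring. Array medians were 6.76 to 6.80 and no value was missing, so the deposited log2 values were used without further scaling. RMA summarises probes on a common distribution, which hides any change in total RNA. The summarised values were still not distributed alike: repeating quantile normalization moved the median change in Ouabain from 0.07 to 0.02. It took *Egln2* in Ouabain from -0.16 to 0.03, neither of them called. The annotation gave 1 symbol for 15097 probe sets, several for 323 and none for 11922, and 15067 of the 15097 matched a RefSeq gene.

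Group means over the 9 arrays and their 3 contrasts were fitted with limma 3.58.1 in R 4.3.3 (the package data.table was at 1.17.8), moderated by empirical Bayes (prior SD 0.0815, on 4.59 prior degrees of freedom) and adjusted over all probe sets. On simulated data for ouabain minus control over 27342 probe sets, the test found 61 of the 69 genes changed 1.5-fold. It found 64 of the 65 changed 2-fold and all 66 changed 4-fold, and made 8 false calls. Only 200 probe sets were changed there, with independent normal noise, whereas 32.5% were called in Ouabain. The recovery and false calls of the simulation therefore need not carry over to the fit. The number of arrays limits the precision. Members and gene lists were chosen with earlier results of these data known. Named genes were the members, up to 3 of the largest called changes per list, *Vegfa* and *Edn1*, and the 2 genes nearest in profile to each called member. Others are said to be named after their values were seen. Promoter windows came from RefSeq (GRCr8). Listed genes without a probe set of 1 symbol were not analysed here. Alternatives covered scaling, filters, moderation, test, fold limit, probe sets, the replicate block and each array left out. Plots used Python 3.11.15 and matplotlib 3.10.9.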

Additional observations from a re-analysis of the deposited data

Results flagged for a closer look

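Some genes responded by different amounts in the 2 treatments, by the limma test of the difference, given here as K+-free medium minus ouabain on the log2 scale. Among the oxygen sensing genes these were *Egln3* (1.74), *Epas1* (0.40), *Hif1an* (0.30), *Egln1* (-0.34) and *Egln2* (-0.58). *Egln2* and *Epas1* did not pass against control in ouabain and *Egln1* passed against control in neither, while *Egln3* and *Hif1an* rose in both. Among HIF targets the differences were 2.10 for *Nos2* (below the array medians in ouabain), 1.48 for *Adm*, 0.95 for *Edn1*, 0.68 for *Ddit4*, 0.49 for *Vegfa*, -0.42 for *Hk2* and -1.29 for *Hmox1*. The regulators and enzymes *Mtor* (0.67), *Kdm4a* (0.69), *Kdm6b* (0.58) and *P4ha2* (0.42) were higher in K+-free medium. *Rbx1* of the VHL ligase (-0.39) and *Usp33*, the deubiquitinase that binds VHL (-0.46), were lower. Of the genes around *Bnip3*, *Bcl2* (1.11), *Fundc1* (0.59) and *Bcl2l1* (0.31) were higher in K+-free medium.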

How the results depend on the processing

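Of 27 member changes (9 genes in 3 contrasts), 19 stayed called or uncalled under all 21 alternatives, 8 had another call under at least 1, and none that was called changed sign. Uncalled differences that did were *Hif3a* in K+-free medium (-0.09 to 0.11), *Egln2* in ouabain (-0.31 to 0.03) and *Bnip3* between the treatments (-0.04 to 0.03). Other fold limits stand outside the 21 alternatives, and some of the 19 changes were called otherwise there. A fold limit of 1.5 left 2 members called in ouabain against control, *Egln3* and *Bnip3*, and 1 between the treatments, *Egln3*. It left 5 in K+-free medium, *Epas1* being lost. Without a fold limit, 6 members were called in ouabain, *Hif3a* (adjusted p = 0.0207) being added, and 7 in K+-free medium, *Hif1a* being added. The methods' t-test with Benjamini-Hochberg adjustment left 2 between the treatments, with *Epas1* (adjusted p = 0.0518), *Hif1an* (adjusted p = 0.0651) and *Egln1* lost, and at an unadjusted p, an alternative chosen after seeing the data, it gave 5, 6 and 5. Leaving out 1 array gave 5 called members each time in ouabain, 6 to 7 in K+-free medium and 3 to 5 between the treatments. Centring on *B2m* shifted the median of all probe sets by -0.15 (ouabain) and -0.16 (K+-free medium) and took the members to 3 higher and 2 lower and to 4 higher and 3 lower. There *Hif1a* in ouabain fell under the fold limit (0.25, adjusted p = 0.00178) and *Egln2* in ouabain (-0.31) and *Egln1* in K+-free medium (-0.32) passed it. Repeated quantile normalization called *Egln1* in ouabain (0.31) and centring on array medians called *Hif1a* in K+-free medium (0.27). The cause was not tested. With the replicate number as a block, 5, 6 and 5 members were called and no call changed. Deviations of same-numbered samples correlated at -0.05 to 0.31, over 0.1 in 4 of 9 pairs, and those of other numbers at -0.28 to 0.16, over 0.1 in 1 of 18. Not every pair exceeded 0.1 and the labels tie no number to an experiment, so a shared experiment is possible but the numbers were not used as pairs. A background correction could not be varied from summarised values, and signal over background limits *Hif3a*, which lay below every array median. Signal over background also bears on *Epas1*, whose control arrays lay below the array medians.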
